A study of Homo sapiens with 4 samples.

Results

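The chromosome 4 interior was taken as every 50 kb bin on chromosome 4 from the one that starts at position 5000001 to the one that starts at 184950001 (hg38), with contacts between DNA ends that both fall in that same bin. Of 3600 such bin positions, 2771 were listed in the deposited table (77.0%), among 48992 same-bin entries and 89239 pairs of bins in all. The table listed mainly well-contacted pairs, so the members are not an even sample of the chromosome. Of 1710 gene-bearing positions 1522 were present (89.0%), but only 872 of 1457 desert positions (59.8%). The desert positions include the gap between CWH43 and DCUN1D4, where the chromosome arms meet, with 2 of 54 positions listed. The bins were chosen by position and gene content, and the region itself was selected on knockdown-over-control fold changes of these same 4 libraries. The contrasts and calls between the groups are therefore given as descriptions.

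The cells were SH-SY5Y, a human neuroblastoma line with noradrenergic and neuronal features. The control group received a control short hairpin RNA (shNC) and the knockdown group a hairpin against TDP-43 (shTDP-43), both from the same lentiviral vector; the protocol describes puromycin selection of the stable knockdown cells. Each group had 2 Micro-C libraries, and the labels do not say whether these came from separate cultures, so every p-value reflects the spread of these libraries alone, which may be technical. Contact counts do not report the RNA or protein of TDP-43, and the depth of the knockdown was not analysed here.

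Micro-C cuts crosslinked chromatin between nucleosomes with micrococcal nuclease and joins neighbouring ends, so a same-bin count reports short-range folding and also how much DNA of the bin was recovered. Copy number and mappability also enter the count and were not measured separately here, so a change in the amount of DNA and a change in its folding cannot be told apart. TDP-43, encoded by TARDBP, is a nuclear RNA- and DNA-binding protein that acts in splicing and transcription and is lost from the nucleus of neurons in amyotrophic lateral sclerosis and frontotemporal dementia. Gene deserts are long stretches without protein-coding genes, which in most cells are late-replicating, lamina-associated and compact; gene starts often lie in open chromatin at CpG-rich promoters.

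The bins were sorted by the protein-coding genes of RefSeq (GRCh38.p14). A bin that touches a gene is called gene-bearing, and a gene-free bin inside a gap of 500 kb or more between genes is called desert. The remaining 377 gene-free bins lie in shorter gaps. Levels are in CPM, counts scaled to each library's listed contacts and its edgeR TMM factor, and fold changes are log2 of knockdown over control.

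The promoters of 6 genes are shown because the bins that hold their starts passed on either side. From 10 Mb on, NR3C2, SLIT2 and LEF1 had the largest falls among start bins whose calls held without each library in turn and with the abundance trend removed, a rescaling described further on. SLC4A4, ODAPH and FGFBP1 lay in start bins that rose under both scalings, but none of these rises held without each library in turn. The SLC4A4 call was lost without control library 1 or knockdown library 1, the ODAPH call without knockdown library 1, and the FGFBP1 call without control library 1 or either knockdown library. All 6 were chosen after their values were seen. Each run is the 250 bases before the annotated start (RefSeq, GRCh38.p14, first entry of the gene), 5′ to 3′ on the strand of the gene, with every CG dinucleotide in capitals.
NR3C2 promoter: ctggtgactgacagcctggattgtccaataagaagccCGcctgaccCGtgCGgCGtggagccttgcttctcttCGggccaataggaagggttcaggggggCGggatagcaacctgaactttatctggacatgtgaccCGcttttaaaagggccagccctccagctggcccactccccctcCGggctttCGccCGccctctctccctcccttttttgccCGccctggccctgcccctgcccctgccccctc
SLIT2 promoter: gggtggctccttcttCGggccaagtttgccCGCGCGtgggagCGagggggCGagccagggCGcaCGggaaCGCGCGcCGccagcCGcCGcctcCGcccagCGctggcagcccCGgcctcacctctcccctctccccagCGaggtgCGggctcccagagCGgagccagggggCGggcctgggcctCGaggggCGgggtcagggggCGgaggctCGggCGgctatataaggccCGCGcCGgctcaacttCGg
LEF1 promoter: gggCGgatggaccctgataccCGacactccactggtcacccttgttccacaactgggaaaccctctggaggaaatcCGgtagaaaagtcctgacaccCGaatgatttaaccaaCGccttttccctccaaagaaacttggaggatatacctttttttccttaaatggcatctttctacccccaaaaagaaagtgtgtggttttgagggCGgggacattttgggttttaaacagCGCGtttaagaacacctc
SLC4A4 promoter: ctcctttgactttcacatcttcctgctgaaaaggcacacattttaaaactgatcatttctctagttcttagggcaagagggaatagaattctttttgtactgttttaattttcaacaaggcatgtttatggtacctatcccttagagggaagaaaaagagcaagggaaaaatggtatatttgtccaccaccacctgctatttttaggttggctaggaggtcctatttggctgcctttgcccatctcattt
ODAPH promoter: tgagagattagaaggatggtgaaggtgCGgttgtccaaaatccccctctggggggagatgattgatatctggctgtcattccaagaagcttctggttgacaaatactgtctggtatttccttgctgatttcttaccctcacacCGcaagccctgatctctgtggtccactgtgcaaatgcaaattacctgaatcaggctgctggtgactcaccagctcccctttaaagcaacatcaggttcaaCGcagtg
FGFBP1 promoter: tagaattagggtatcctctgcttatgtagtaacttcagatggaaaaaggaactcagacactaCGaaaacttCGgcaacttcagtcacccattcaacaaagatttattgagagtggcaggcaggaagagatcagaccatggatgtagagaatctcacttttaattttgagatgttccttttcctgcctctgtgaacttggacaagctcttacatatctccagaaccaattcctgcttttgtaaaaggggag
These windows lie at chr4:148442415-148442664 for NR3C2 (minus strand), chr4:20251655-20251904 for SLIT2 (plus), chr4:108166302-108166551 for LEF1 (minus), chr4:71062410-71062659 for SLC4A4 (plus), chr4:75555816-75556065 for ODAPH (plus) and chr4:15938741-15938990 for FGFBP1 (minus). The letters CG read the same on both strands. CG occurred 11 times before NR3C2, 30 times before SLIT2 and 8 times before LEF1, against 0, 3 and 2 times before SLC4A4, ODAPH and FGFBP1. The NR3C2 and LEF1 windows lie inside the full spans of these genes, whose annotation extends beyond the start used. The LEF1 bin also holds the start of LOC124900752, with 26 CG before it. FGFBP2, not shown, lay in a start bin that also rose under both scalings and had 5 CG. Across all 15812 protein-coding promoters in the RefSeq table, 96.9% held at least 1 CG, with a median of 17.

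Over the whole interior the groups lay close together. The median bin stood at 3.78 and 3.6 CPM under control and 3.93 and 3.86 CPM under knockdown, and the median log2 fold change was 0.04, against 0.02 over all same-bin entries. By edgeR's quasi-likelihood test with Benjamini-Hochberg adjustment over all pairs, 152 bins were higher in knockdown (5.49%) and 153 lower (5.52%) at an adjusted p under 0.05. Among all same-bin entries, 7.4% were higher and 14.3% lower (21.7% either way). Both knockdown libraries lay above both controls in 857 bins and below them in 552; the same held for 31.4% and 28.5% of all same-bin entries (59.9% together). Leaving out knockdown library 1 left 97 calls and leaving out knockdown library 2 left 114, against 357 and 295 without control libraries 1 and 2.

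Fold change fell with the level of a bin, and deserts and genes differ in level. Across the 2771 bins, which share the libraries, the log2 fold change and the log2 mean level had a Pearson's r of -0.278, given as a description. With the trend of fold change on abundance removed by a loess curve, as the authors' deposited table appears to do (its log2 values differ from the refit by at most 0.00234 on the members), 86 bins were higher and 102 lower, against 7.89% and 5.12% of all same-bin entries (13% together), and the median log2 fold change over the bins was 0.0038. The authors' deposited table called the same numbers of bins, and 8.0% higher and 5.12% lower of all same-bin entries (13.1% together). DESeq2 called 77 higher and 124 lower, against 3.73% and 13% (16.7% together).

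**Figure D1:**
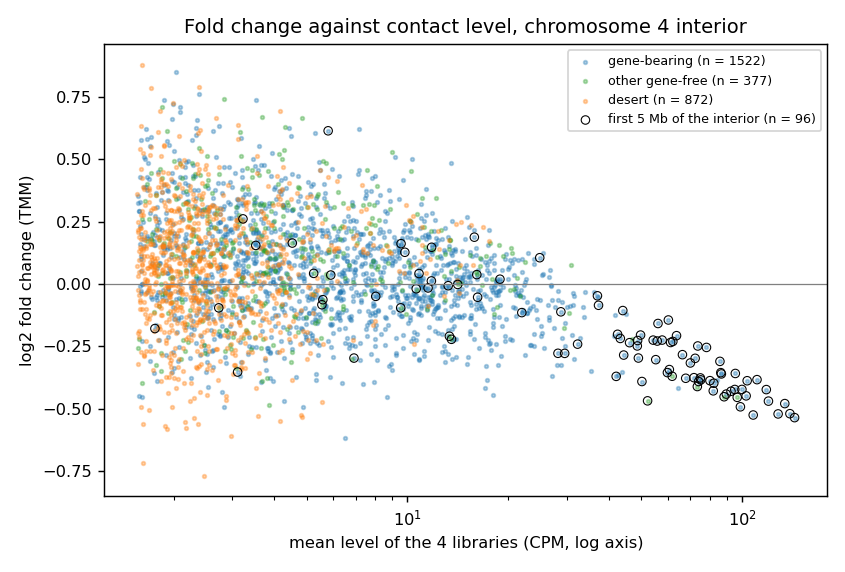
Fold change of each bin (vertical axis, log2, TMM scaling) against its mean level over the 4 libraries (horizontal log axis, CPM), coloured by gene content, with the 96 bins under 10 Mb ringed. All 51 bins at a mean of 50 CPM or more lie below 0, and 49 of them are ringed; with the abundance trend removed 41 of the 51 lie below 0.

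Deserts and gene-bearing bins differed by less than their own spread. Desert bins had medians of 2.44 and 2.29 CPM in control and 2.44 and 2.42 CPM in knockdown, with a median log2 fold change of 0.06 and a middle range (lower to upper quartile) of -0.10 to 0.21. Gene-bearing bins had medians of 5.99 and 5.78 CPM in control and 6.03 CPM in both knockdown libraries, with a median of 0.02 and a middle range of -0.11 to 0.16. The deserts stood 0.04 above the gene-bearing bins in median log2 fold change, and 0.016 below them with the trend removed (-0.0161). Counted by test, 33 desert bins were higher and 12 lower (3.78% and 1.38%), and 81 gene-bearing bins were higher and 133 lower (5.32% and 8.74%). Among all same-bin entries 7.4% were higher and 14.3% lower. With the trend removed the counts were 18 and 19 for deserts (2.06% and 2.18%). For gene-bearing bins they were then 50 and 74 (3.29% and 4.86%), beside 7.89% and 5.12% of all same-bin entries.

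The direction of the desert contrast also turned with the level compared. When bins were split into 5 equal classes by mean level, deserts lay below gene-bearing bins in the lowest 3 classes (differences in median log2 fold change of -0.09, -0.03 and -0.06) and above them in the upper 2 (0.11 and 0.19). The highest class held only 25 desert bins beside 471 gene-bearing ones. Counting long non-coding RNA genes as genes left 177 desert bins, and their median then lay below that of the gene-bearing bins (difference -0.05).

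Measured as a share of the interior's own contacts, deserts took slightly more in knockdown. Deserts held 12.33% and 11.75% under control and 13.2% and 13.16% under knockdown, a difference of 1.14 percentage points. The gene-bearing share was 76.22% and 76.97% in control and 74.79% and 74.76% in knockdown. The groups did not overlap in either share, and 2 libraries against 2 cannot give a two-sided exact permutation p below 0.333, which is what both gave. From 10 Mb on the desert share was 16.48% and 15.97% in control and 16.76% and 16.78% in knockdown, a difference of 0.541 percentage points.

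Gene-bearing bins were next split by where in a gene they lay. Bins that hold a gene start fell more often than they rose, while bins over gene bodies and gene-free bins in short gaps rose more often. The 541 bins with a gene start had a median log2 fold change of -0.05, with 9 higher and 76 lower (1.66% and 14.0%, beside 7.4% and 14.3% of all same-bin entries in the table). The 885 bins with only gene body had a median of 0.08, with 69 higher and 39 lower (7.8% and 4.41%). The lower share of gene-start bins and the higher share of gene-body bins were thus near those of all same-bin entries. The 377 gene-free bins in short gaps had a median of 0.11, with 38 higher and 8 lower (10.1% and 2.12%). A further 96 bins hold an end of a gene whose strand the RefSeq table used here did not give. Their median was -0.04, with 3 higher and 18 lower (3.12% and 18.8%).

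With the trend removed the order stayed: -0.05 for gene starts, 0.03 for gene bodies and 0.06 for the gene-free bins in short gaps, with deserts at -0.0172. The counts were then 8 higher and 43 lower for gene starts (1.48% and 7.95%) and 41 and 17 for gene bodies (4.63% and 1.92%). For the gene-free bins in short gaps they were 18 and 9 (4.77% and 2.39%), beside 7.89% and 5.12% of all same-bin entries. Gene-start bins were also the better contacted, at medians of 9.9 and 9.82 CPM in control against 4.21 and 4.05 CPM for gene bodies. Within the middle 1 of 5 classes of mean level, gene starts and gene bodies had medians of 0.08 and 0.11, and in the class above it -0.05 and 0.09. In the class below it the order was the other way, at 0.14 and 0.07, and in the lowest and highest classes the medians were 0.17 and 0.16, and -0.08 and -0.0099. From 10 Mb on, 54 of 512 gene-start bins were lower and 9 higher (10.5% and 1.76%). Of 838 gene-body bins, 11 were lower and 68 higher (1.31% and 8.11%). Among all same-bin entries 14.3% were lower and 7.4% higher.

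**Figure D2:**
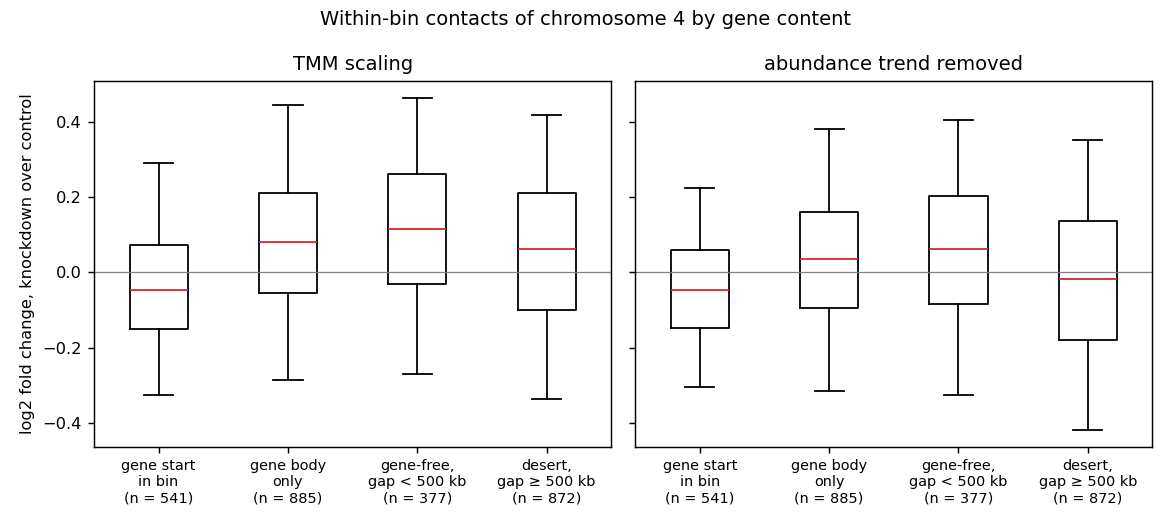
Log2 fold change (vertical axis) of bins by gene content, with TMM scaling at left and the abundance trend removed at right; boxes span the quartiles, red lines the medians and whiskers the 5th to 95th percentiles of bins. Gene-start bins have medians of -0.05 in both panels, and the desert median passes from 0.06 to -0.0172.

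Seen from the calls, 49.7% of the 153 lower bins held a gene start, against 5.92% of the 152 higher bins and 18.5% of the 2466 bins past no threshold. With the trend removed these shares were 42.2% of lower and 9.3% of higher bins. Lower bins were also better contacted. Their median control level was 29.1 CPM, against 4.52 CPM for higher bins and 3.43 CPM for bins past no threshold. Of the lower gene-start bins, 67 lay in the highest of the 5 classes of mean level. The part of level in these shares was not tested. Taking the first entry of each gene, the promoters in lower bins were rich in GC. Over the 250 bases before the start, these 77 had a median GC content of 67.6% and a median of 23 CG. The 454 promoters in listed bins past no threshold had 59.6% and 16. The 7 promoters in higher bins had 46.4% and 3, though the CCDC158 promoter among them had 76.4% and 35. The 30 in unlisted bins had 35.6% and 1.5. Further starts of a gene also mark gene-start bins, so these promoters do not cover every called gene-start bin. Of the 77 promoters in lower bins, 55 lay from 10 Mb on, with 64.8% GC and 22 CG. GC content of whole bins was not analysed here, and its part in these differences was not tested.

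The contrast also appeared inside single genes. For 56 genes with at least 6 listed bins and a placed start, the start bin lay below the median of the gene's other bins in 45 genes (41 with the trend removed). The median difference in log2 fold change was -0.18 (-0.14 with the trend removed). Of the 56 start bins 8 were lower and 2 higher, and of the 477 other bins 14 were lower and 38 higher. Among all same-bin entries 14.3% were lower and 7.4% higher. The other bins can include further starts of the same gene or of a neighbour.

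NR3C2 encodes the mineralocorticoid receptor, a hormone-activated transcription factor. Its start bin (chr4:148400001-148450000) had 19.9 and 21.7 CPM in control and 14.7 and 15.9 CPM in knockdown, a log2 fold change of -0.45 (SE 0.0724, edgeR adjusted p = 2.37e-07). The groups did not overlap, and the other bins over NR3C2 went slightly the other way, at a median of 0.08 with none called. SLIT2 encodes a secreted axon guidance ligand of Robo receptors. Its start bin (chr4:20250001-20300000) had 18.2 and 20.9 CPM in control and 15.0 CPM in both knockdown libraries, a log2 fold change of -0.38 (SE 0.074, edgeR adjusted p = 1.69e-05). The other bins over SLIT2 had a median of 0.10. Both start bins kept their calls without each library in turn, and with the trend removed (-0.42 and -0.36).

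PPARGC1A encodes a coactivator that drives mitochondrial biogenesis. Of its 13 listed bins 5 were higher in knockdown, all over the gene body, at log2 fold changes of 0.48 to 0.61, and 2 of the 5 kept the call with the trend removed. The bin at chr4:24150001-24200000 had 1.9 and 2.27 CPM in control and 2.82 and 3.54 CPM in knockdown. The start bin of PPARGC1A, at 15.3 and 17.1 CPM in control and 13.6 and 15.9 CPM in knockdown, had a log2 fold change of -0.14 that did not pass (edgeR adjusted p = 0.247). The groups overlapped at the start bin.

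SLC4A4, a sodium bicarbonate cotransporter gene, ran the opposite way. The bin of its start (chr4:71050001-71100000) had 1.92 and 2.36 CPM in control and 3.82 and 2.83 CPM in knockdown, a log2 fold change of 0.63 (SE 0.186, edgeR adjusted p = 0.00894). The call was lost without control library 1 or knockdown library 1. This start bin was poorly contacted in control, below the median of the gene's other bins (3.3 and 2.66 CPM). As shown above, no CG stood in the 250 bases before that start.

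**Figure D3:**
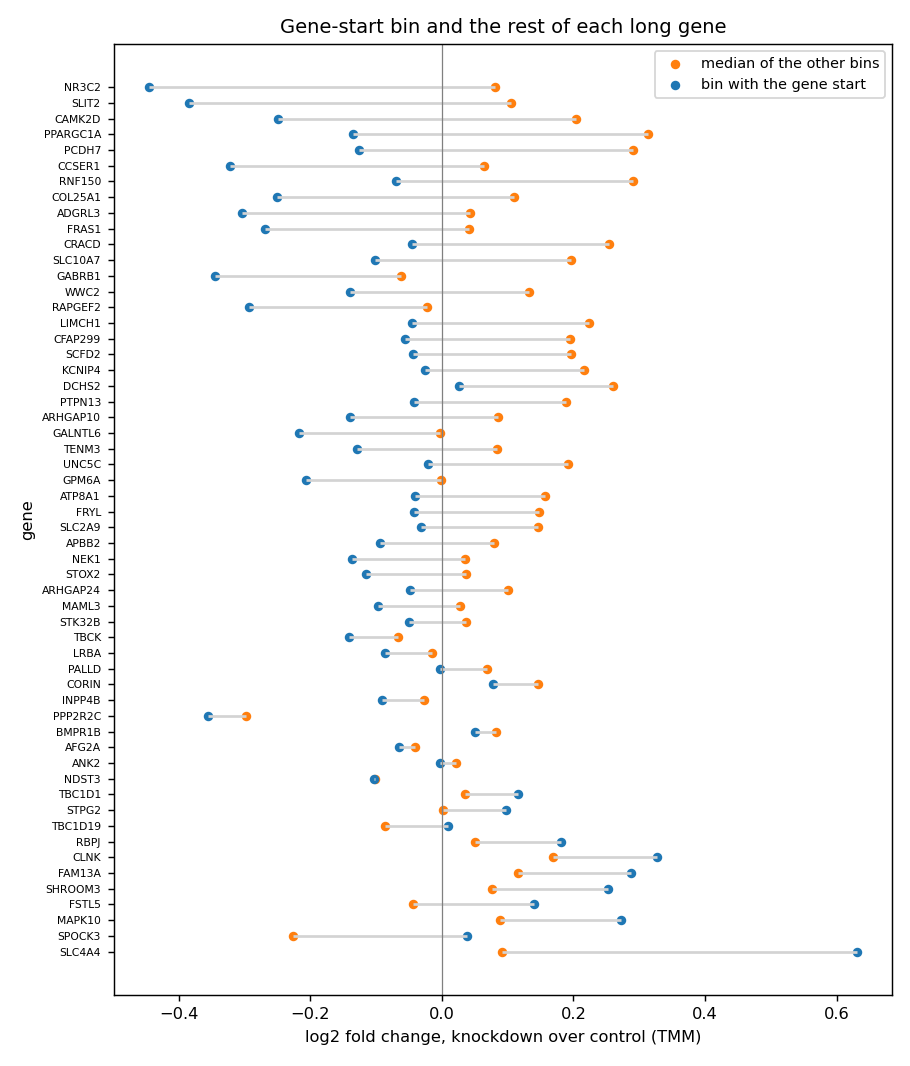
For each of 56 genes with at least 6 listed bins (vertical axis), the log2 fold change (horizontal axis, TMM scaling) of the bin with the gene start in blue and the median of the gene's other bins in orange, ordered by their difference. Blue lies left of orange in 45 genes, furthest for NR3C2, and furthest right for SLC4A4.

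The gene-free bins were also split by their distance from genes. Among all same-bin entries 7.4% were higher and 14.3% lower, and 7.89% and 5.12% with the trend removed. Bins under 50 kb from a gene had a median log2 fold change of 0.11, with 23 of 300 higher and 8 lower (7.67% and 2.67%). With the trend removed these were 0.06, 7 and 7. Those from 50 to 200 kb away had 0.12, with 31 of 407 higher and 3 lower (7.62% and 0.737%). With the trend removed these were 0.05, 18 and 6. Those from 200 to 500 kb away had 0.07, with 16 of 271 higher and 2 lower (5.9% and 0.738%). Their median turned to -0.0043, with 11 higher and 6 lower, with the trend removed. Bins 500 kb or more from any gene had a median of 0.0025, with 1 of 271 higher and 7 lower (0.369% and 2.58%). Once the trend was removed it was -0.08, with 0 higher and 9 lower (3.32%). The lower share of each distance class was below that of all same-bin entries under both scalings. These most remote bins were also the least contacted, at 2.18 and 2.05 CPM in control and 2.15 and 2.21 CPM in knockdown. Their share of the interior's contacts was 3.024% and 2.822% in control and 3.024% and 3.046% in knockdown.

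**Figure D4:**
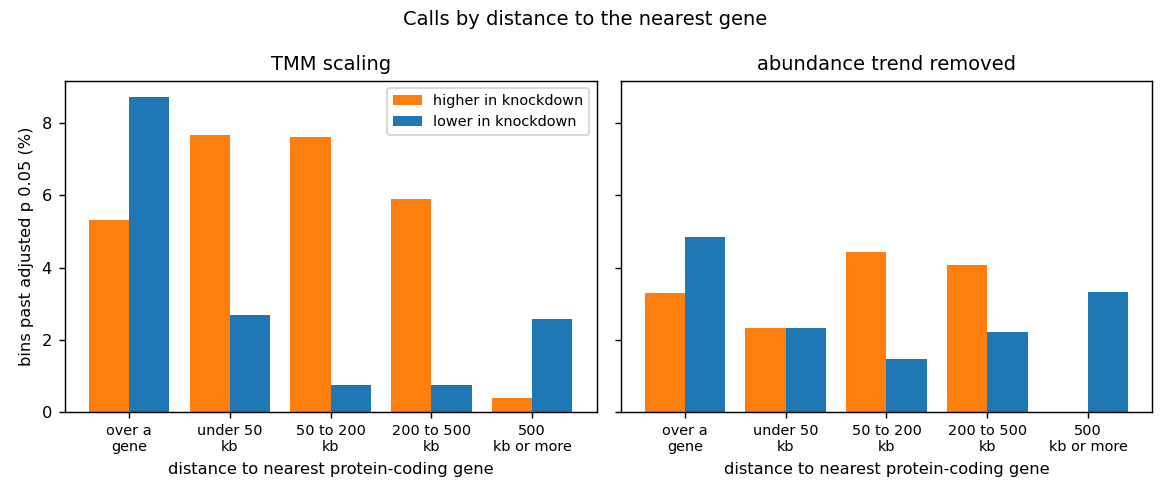
Share of bins (vertical axis, percent) past an adjusted p of 0.05 as higher (orange) or lower (blue) in knockdown, by distance to the nearest protein-coding gene (horizontal axis), with TMM scaling at left and the abundance trend removed at right. Higher bins outnumber lower ones between 50 and 500 kb, and lower ones outnumber higher ones from 500 kb on, in both panels. Of all same-bin entries, 7.4% were higher and 14.3% lower by the scaling at left, and 7.89% and 5.12% by that at right.

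Single deserts did not move as one. There were 56 gaps of 500 kb or more, 75.6 Mb in all, counting the gap between CWH43 and DCUN1D4 (2.77 Mb), where the arms meet. Of the 56, 37 had at least 10 listed bins. Among these 37, medians ran from -0.155 to 0.29, with 27 above 0 and 10 below (19 and 18 with the trend removed). The 5 longest lay between PCDH7 and ARAP2 (4.86 Mb), IGFBP7 and LOC124900173 (4.09 Mb), C4orf33 and PCDH10 (4.03 Mb), AGA and TENM3 (4.01 Mb), and STIM2 and LOC124900844 (3.69 Mb). Their medians ran between 0.05 and 0.08, and between -0.036 and -0.004 with the trend removed, and none held more than 2 bins higher or 1 lower. The PCDH7 to ARAP2 desert, the longest, had medians of 2.06 and 1.93 CPM in control and 2.0 and 2.03 CPM in knockdown over its 38 listed bins, with no bin past the threshold.

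Shorter deserts reached further from 0. Between TTC29 and EDNRA, the gene of the endothelin A receptor, the median log2 fold change was 0.29 over 10 bins, with medians of 4.13 and 3.95 CPM in control and 5.08 and 4.8 CPM in knockdown. Between LDB2 and QDPR it was 0.24 over 11 bins, 4 of them higher, at 5.23 and 4.67 CPM in control and 6.41 and 6.07 CPM in knockdown. At the low end, the desert between NDST4 and TRAM1L1 had a median of -0.155 over 21 bins, 2 of them lower. Its medians were 2.54 and 2.32 CPM in control and 2.06 and 2.37 CPM in knockdown, which overlap.

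The 96 bins under 10 Mb stood apart from the rest. Their median level was 55.2 and 59.8 CPM in control and 44.9 and 47.1 CPM in knockdown, against 3.66 and 3.46 CPM and 3.8 and 3.77 CPM in the 2675 bins further in. Of the 96, 60 were lower in knockdown and 1 higher (62.5% and 1.04%), with a median log2 fold change of -0.25. After the trend was removed 17 were lower and 2 higher (17.7% and 2.08%), with a median of -0.04. Among all same-bin entries 14.3% were lower and 7.4% higher, and 5.12% and 7.89% with the trend removed. They took 25.19% and 26.47% of the interior's contacts in control and 21.25% and 21.57% in knockdown. The 2675 bins from 10 Mb on counted 151 higher and 93 lower (5.64% and 3.48%), and 84 and 85 with the trend removed (3.14% and 3.18%). All of these shares lay below those of all same-bin entries.

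The longest run of lower bins covered 21 adjoining bins at chr4:7900001-8950000, over genes that include AFAP1, SH3TC1, HTRA3, ACOX3, TRMT44, GPR78, CPZ and HMX1. They encode, among others, an actin filament-associated protein (AFAP1), a peroxisomal acyl-CoA oxidase (ACOX3), a serine protease (HTRA3) and a homeobox factor (HMX1). The run averaged 98.0 and 104.0 CPM in control and 74.0 and 75.2 CPM in knockdown, and its median log2 fold change was -0.42, with 10 of the 21 bins still lower and a median of -0.10 once the trend was removed. The bin with the largest fall, over SH3TC1 at chr4:8200001-8250000, had 164.0 and 175.0 CPM in control and 118.0 and 116.0 CPM in knockdown, a log2 fold change of -0.54 (SE 0.0557, edgeR adjusted p = 3.15e-15) that shrank to -0.10 with the trend removed. The next bin beyond the run, gene-free, had 13.2 and 15.9 CPM in control and 11.9 and 13.1 CPM in knockdown and did not pass.

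Runs of 16 and 14 lower bins lay at chr4:5950001-6750000, over PPP2R2C, JAKMIP1, WFS1 and others, and at chr4:6850001-7550000, over TBC1D14, SORCS2 and others. Their medians were -0.25 and -0.38, of which 0 and 3 bins remained lower with the trend removed. Higher bins were scattered: 152 lay in 128 separate regions, 106 of them single bins. Most lower regions were single bins too: the 153 lower bins lay in 93 regions, 83 of them single. Past chr4:8950000 the lower runs were also short, at 2 or 3 bins each. The longest higher runs were 3 bins each, over USP46, a deubiquitinase gene (chr4:52500001-52650000), and SCFD2 (chr4:52900001-53050000), with medians of 0.44 and 0.37, of which 2 and 1 bins passed with the trend removed. Over the USP46 run the mean level was 5.56 and 5.34 CPM in control and 7.64 and 7.52 CPM in knockdown.

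Both of those runs fell in the window from 50 to 55 Mb, which begins inside the gap between CWH43 and DCUN1D4. It held 21 higher (33.3%) and 0 lower bins among 63 and had a median of 0.21. With the trend removed the median was 0.17, with 12 higher bins (19.0%). Among all same-bin entries 7.4% were higher and 14.3% lower, and 7.89% and 5.12% with the trend removed. The windows from 10, 15 and 20 Mb had medians of 0.16, 0.15 and 0.21 (0.10, 0.11 and 0.12 with the trend removed). By contrast, the window from 160 Mb had a median of -0.04, and -0.12 with the trend removed, with 1 lower bin among 73.

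By the rule for single regions, the 10 largest rises and 10 largest falls were taken among bins past the threshold whose libraries did not overlap. Of the 10 rises, 5 lay over gene bodies, among them PARM1, PAPSS1, CFAP299 and TENM3, 4 in deserts and 1 in a shorter gap. Of the 10 falls, 8 lay in deserts and the others over gene bodies, among them SH3TC1. All 20 passed with the trend removed, though the SH3TC1 fall was then -0.10 in place of -0.54, and only 6 did without knockdown library 1 and 11 without knockdown library 2.

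The largest rise was a desert bin at chr4:44950001-45000000, at 1.18 and 1.09 CPM in control and 2.16 and 2.02 CPM in knockdown, a log2 fold change of 0.88 (SE 0.226, edgeR adjusted p = 0.00213). Without knockdown library 1 its adjusted p was 0.0657. The rise that held without each library was the gene-free bin at chr4:146050001-146100000, at 1.92 and 2.33 CPM in control and 3.55 and 3.54 CPM in knockdown, a log2 fold change of 0.74 (SE 0.181). Over TENM3, which encodes a teneurin cell adhesion protein of synapses, the bin at chr4:181750001-181800000 had 2.38 and 2.91 CPM in control and 4.73 and 4.09 CPM in knockdown. Its log2 fold change of 0.74 (SE 0.161, edgeR adjusted p = 0.000194) was lost as a call without knockdown library 1 (adjusted p = 0.0767).

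The largest fall was a desert bin at chr4:104300001-104350000, at 3.67 and 2.55 CPM in control and 1.74 and 1.9 CPM in knockdown. Its control libraries lay far apart, and the log2 fold change of -0.77 (SE 0.195, edgeR adjusted p = 0.00183) lost its call without control library 1 or knockdown library 1 (adjusted p up to 0.113).

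**Figure D5:**
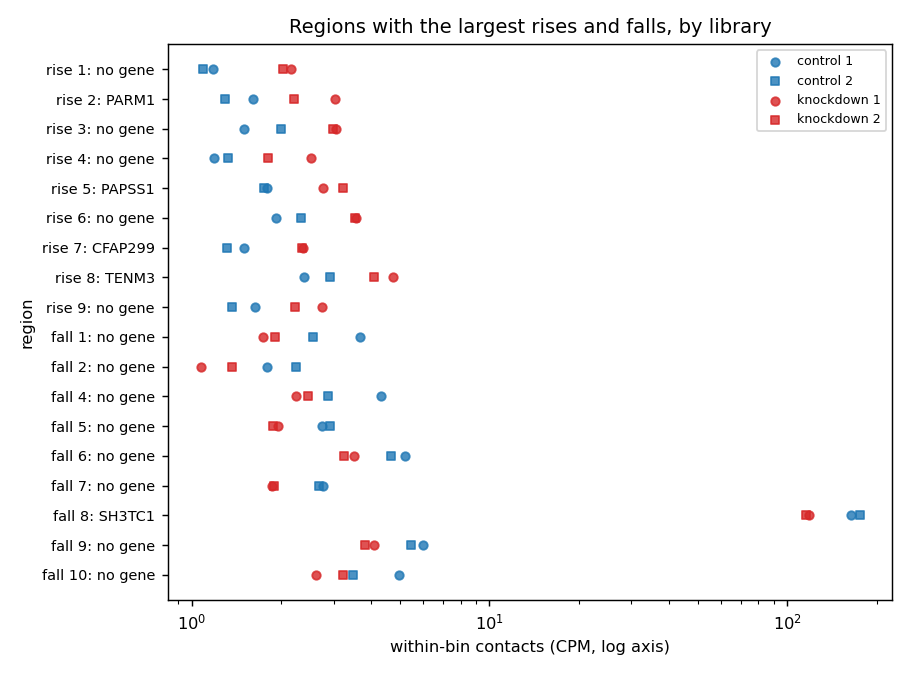
Same-bin contacts of each library (horizontal log axis, CPM) in 9 of the 10 regions with the largest rises and 9 of the 10 with the largest falls (vertical axis, with the gene each bin overlaps). Control libraries are blue and knockdown libraries red; by the rule of choice they never overlap, and only the SH3TC1 bin lies above 10 CPM.

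The genes of the interior were read through lists by function, drawn up with earlier results of these data known. Of all 620 protein-coding genes over a listed bin, 55 touched only higher bins, 111 only lower bins, 8 both and 446 neither. Of the genes on these lists 30 touched a called bin, and the number was 19 with the trend removed and 10 without either knockdown library. Of the long neuronal adhesion and guidance genes, 3 of 16 touched only higher bins, 5 only lower bins and 2 both (7 touched a lower and 4 a higher bin with the trend removed), with a median of gene medians (log2 fold change) of 0.02 beside -0.0037 for all 620. SORCS2, a neurotrophin-binding sorting receptor gene under 10 Mb, had 11 of its 12 bins lower at a median of -0.38 (log2), but 2 lower and a median of -0.03 with the trend removed. TENM3, the gene with the most listed bins, had 5 of 29 bins higher and 1 lower (2 and 1 with the trend removed). The lower bin, at chr4:182800001-182850000, holds only the last part of the gene, which ends at position 182803024. That bin fell from 48.0 and 47.9 CPM to 37.8 and 36.8 CPM. ADGRL3, a latrophilin adhesion receptor gene, fell at its start bin (-0.30) and rose in 1 bin of its body (0.69). Both ADGRL3 calls were lost without knockdown library 1.

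Other genes with many listed bins showed few calls. CCSER1 had 1 of 25 bins lower, at its start (-0.32), and none higher. GALNTL6 had none of 23 past the threshold, and the potassium channel-interacting protein gene KCNIP4 had 1 of 19 higher (0.71). The median log2 fold changes over their listed bins were 0.03, -0.0028 and 0.21, and -0.04, -0.08 and 0.12 with the trend removed. The CCSER1 and KCNIP4 calls were each lost without control library 1 or either knockdown library.

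Among transcription factors of the neural crest and noradrenergic lineage, the bin of HAND2 fell from 93.8 and 96.8 CPM in control to 73.2 and 72.6 CPM in knockdown (-0.39, SE 0.0547, edgeR adjusted p = 2.7e-09). Once rescaled for the trend it stood at -0.07 and did not pass (edgeR adjusted p = 0.211). LEF1, a Wnt pathway factor, fell at its start bin from 30.6 and 30.3 CPM to 22 and 25.1 CPM (-0.37, SE 0.063, edgeR adjusted p = 9.14e-07), also with the trend removed (-0.29).

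Of the receptor tyrosine kinase genes, the VEGF receptor gene KDR rose from 3.82 and 3.3 CPM to 5.91 and 4.86 CPM in its largest bin (0.59, SE 0.142, edgeR adjusted p = 0.000786). The KDR call was lost without knockdown library 1. PDGFRA rose in 1 bin from 7.98 and 7.73 CPM to 8.76 and 10.3 CPM (0.28), a call lost with the trend removed (edgeR adjusted p = 0.0953). KIT, the stem cell factor receptor gene between them, had a log2 fold change of 0.29 in its largest bin that did not pass (edgeR adjusted p = 0.15).

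Of 5 neurodegeneration genes, 3 touched only lower bins and 1 only higher. UCHL1, a neuronal ubiquitin hydrolase gene, fell from 18.2 and 18.4 CPM to 15.6 and 16.0 CPM (-0.21). WFS1, the Wolfram syndrome gene, fell in both bins that it touches. The second of these, chr4:6300001-6350000, holds WFS1 only up to position 6303265 and also lies over PPP2R2C. Neither UCHL1 nor WFS1 passed with the trend removed (edgeR adjusted p = 0.0836 for UCHL1 and 0.0744 for the WFS1 bin with the larger fall). SCARB2, a lysosomal membrane protein gene, rose in 1 bin (0.26), also lost with the trend removed (edgeR adjusted p = 0.0565).

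The lists of general cell functions held the following calls. For translation and RNA binding, 2 of 12 touched lower bins and none higher, beside 111 and 55 of all 620 genes: the cap-binding factor gene EIF4E (-0.26) and HNRNPDL (-0.25), whose call was lost with the trend removed (edgeR adjusted p = 0.0712). Of the chromatin genes, 2 of 10 touched a lower bin, KLF3 (-0.26) and the Notch pathway factor gene RBPJ (-0.22). The RBPJ call was lost with the trend removed (edgeR adjusted p = 0.0811). It was 1 of 7 listed RBPJ bins, whose median log2 fold change was 0.16, and 0.12 with the trend removed. Among 10 cell cycle genes, the kinetochore motor gene CENPE fell in 1 of 2 bins (-0.37) and CCNI rose in 1 of 2 (0.33). The CCNI bin, chr4:77000001-77050000, holds the gene only from position 77047155 on. Of 9 metabolic genes, NDUFC1 (-0.23) and ETFDH (-0.30) each fell in 1 of 2 bins, and PPARGC1A rose in 5 of 13. NDUFC1 did not pass with the trend removed (edgeR adjusted p = 0.0675). The calls of EIF4E, KLF3, CENPE and CCNI were each lost without either knockdown library, and that of CENPE also without control library 1. The ETFDH call was lost without knockdown library 2.

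Tissue-restricted gene clusters showed almost no calls, beside 55 of all 620 genes touching only higher bins, 111 only lower bins and 8 both. None of the listed GABA-A receptor (3 genes), CXC chemokine (13), albumin family (3), casein and salivary (5), alcohol dehydrogenase (7), bone matrix SIBLING (5) or fibrinogen (3) genes touched a bin past the threshold by edgeR or by DESeq2. Of these 39 genes, 6 touched a bin at an unadjusted edgeR p under 0.05. Several of the genes share a bin, such as CXCL9, CXCL10 and CXCL11, so they are not separate counts. Many of their bins were poorly contacted. The CXCL8 bin, at 1.33 and 1.43 CPM in control, did not pass at a log2 fold change of 0.55 (edgeR adjusted p = 0.0755). Of the UGT2 glucuronosyltransferase genes only 4 of 10 had a listed bin, and UGT2A1 and UGT2A2 shared 1 higher bin (0.62), a call lost with the trend removed (edgeR adjusted p = 0.129). The neurotransmitter receptor list had 2 of 10 genes with a higher bin, among them the glycine receptor gene GLRA3 (0.51), whose call was likewise lost (edgeR adjusted p = 0.112).

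Contacts between adjoining bins gave a readout of the same libraries outside the same-bin entries. Of the 498 listed adjoining pairs within the interior, the 53 that touch a higher bin had a median log2 fold change of 0.28, with 6 higher and 0 lower, and the 139 that touch a lower bin had -0.04, with 0 higher and 21 lower. Over all 498 the median was 0.13, and of all listed pairs 5.76% were higher and 10.5% lower (16.2% together). From 10 Mb on, the 73 pairs touching a lower bin had a median of 0.06 (-0.0149 with the trend removed) and none was called. These pairs share libraries and DNA ends with the same-bin counts.

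Other regions stood as follows, with no test of a difference between regions. In the first 5 Mb of the short arm 61.6% of 99 bins were lower (40.4% with the trend removed), at a median of -0.30 (-0.10). Chromosomes 13 and 18, also poor in genes, had 6.35% higher and 8.18% lower of 2959 bins (4.56% and 4.9% with the trend removed). Those bins were taken from the whole chromosomes, ends included, so their shares are not matched to those of an interior. The chromosome 7 interior had 246 higher and 354 lower of 2738 bins (8.98% and 12.9%), a balance that turned to 300 higher and 101 lower with the trend removed. The interior as a whole took 2.48% and 2.422% of all same-bin contacts in control and 2.61% and 2.585% in knockdown. The groups did not overlap, and the two-sided exact permutation p was again 0.333, the smallest these libraries allow. At the boundaries, the last 2 bins inside had log2 fold changes of 0.18 and -0.12 and the next 2 outside -0.19 and 0.13. The first 2 inside had 0.02 and -0.05 and the nearest 2 before them 0.12 and -0.12.

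The libraries held 158400914 and 163147992 listed contacts in control and 115168160 and 142424414 in knockdown, of which 3337201, 3356684, 2517574 and 3083773 were same-bin contacts of the interior. The log2 levels of any pair of libraries correlated across the 2771 bins with Pearson's r of 0.975 to 0.986, given as a description since bins share libraries and level.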

How the data were processed

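Micro-C libraries of SH-SY5Y cells (2 control, 2 TDP-43 knockdown) were read from 1 table of raw contact counts per pair of 50 kb bins, deposited by the authors. HiC-Pro and build hg38 are named in the submitters' processing notes; the sources used here do not say how pairs were chosen for the table. The authors' deposited table also holds a log2 fold change, a log2 abundance, an F score and p-values with their adjusted form. Counts of all 89239 pairs were fitted with edgeR 4.0.16 (R 4.3.3; TMM, filterByExpr, which removed 0 pairs, quasi-likelihood test, Benjamini-Hochberg over all pairs, threshold 0.05). Alternatives were loess offsets on abundance (span 0.3), other TMM sets, DESeq2 1.42.0, no filter, a replicate block, stricter thresholds, other desert definitions and leaving out each library. The biological coefficient of variation was 9.01%. Scripts were tested on simulated data. The region and gene lists were chosen with earlier results of these data known. The rule for single regions took the 10 largest rises and falls past the threshold with no overlap of libraries, up to 3 genes per list, the 5 longest deserts and the 5 genes with most bins; other genes named were chosen after their values were seen. GC content and repeats of bins were planned but not analysed here, since no genome was used. Genes, starts and promoters came from RefSeq (GRCh38.p14); of the genes, 568 had a promoter entry. A few single genes and regions that the rule names are not reported here.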

Additional observations from a re-analysis of the deposited data

How the results depend on the processing

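Against 305 calls (5.49% of bins higher, 5.52% lower), separate counts were 188 (3.1% higher; 168 bins called under both scalings) with the abundance trend removed and 188 (3.1%) in the authors' deposited table, 201 (2.78% higher) by DESeq2 and 172 (2.31% higher) at a threshold of 0.01. Without bins under 10 Mb, an alternative chosen after seeing the data, 3.48% were lower. Leaving out 1 library gave 97 to 357 calls, with 1.12% to 6.68% higher and 2.38% to 6.21% lower; where it leaves 1 sample in a group, that sample is assumed to vary like the other group. The median log2 fold change of 0.04 became 0.0038 with the trend removed, 0.0037 in the authors' table and 0.0079 with TMM on the interior alone (0.02 to 0.06 without 1 library). That last scaling gave 103 higher and 187 lower. The desert minus gene-bearing difference of 0.04 became -0.0161 with the trend removed, -0.0169 in the authors' table, -0.0482 with long non-coding RNA genes counted and -0.0032 within classes of control level. Within classes of mean level, added after seeing the data, it was 0.0236, and 0.0154 with the trend removed; without 1 library it was 0.0271 to 0.0662. The desert share difference of 1.14 points became 0.4965 with gaps of 1 Mb or more, 0.061 with long non-coding RNA genes counted and 0.5405 without bins under 10 Mb (0.848 to 1.43 without 1 library). The difference in the interior's share of all same-bin contacts was 0.117 to 0.175 points without 1 library. Against 30 listed genes with a call, separate counts were 19 with the trend removed, in the authors' table and by DESeq2, 17 at 0.01, and 10 to 33 without 1 library; the named regions numbered 6 to 16 of 20. The cause of these shifts was not tested. Across all listed pairs of bins, the libraries numbered 1 deviated from their group means with a correlation of 0.0214. With 2 libraries per group, those numbered 2 mirror these deviations and add no second value. The numbers were not taken as pairs. The fit with a replicate block gave 336 calls (170 higher, 166 lower). Bins with few contacts need a larger change to pass.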
